A study of Drosophila melanogaster with 6 samples.

Results

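The piRNA pathway genes were followed in adult testes of Drosophila melanogaster with and without overexpression of the microRNA miR-2b-1. The list holds 37 germline and somatic genes, taken by FlyBase symbol and not by a threshold on these counts. Of these, 36 had a row under their current gene identifier among the 17559 genes of the count files, and vas was not analysed here. There were 3 samples of actin5C-Gal4>UAS-miR-2b-1 and 3 control samples of actin5C-Gal4>w1118, from males aged 3 to 5 days and raised from crosses at 28 °C. The GAL4 driver, which both groups carry, is expressed in most tissues, so neither germ cells nor somatic cells of the testis were targeted alone. The transgene is of the UASp type, a vector built to work in germ cells, and came from a stock of its own, so miR-2b-1 and the parental strain cannot be told apart. One passage of the study's text gives OreR in place of w1118 as the parent of the control. Each sample was RNA from a pool of testes.

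Piwi-interacting RNAs (piRNAs) are small RNAs of the gonad that guide Argonaute proteins of the PIWI clade to transposon transcripts. In germ cells the cytoplasmic Argonautes cut transposon RNA in turn and make more piRNAs from the pieces, a cycle called ping-pong, in a perinuclear granule called nuage. In the nucleus Piwi directs silencing of transposon loci through chromatin, and special transcription and export factors read the heterochromatic clusters that give rise to piRNAs. In the fly testis the pathway is known for silencing the X-linked Stellate repeats through piRNAs from the Y-linked Suppressor of Stellate repeats.

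The 6 libraries had between 18047619 and 27789620 counts on genes. The gene mir-2b-1 had 0 counts in each library, so the overexpression could not be checked from these counts. The eye pigment transporter gene w, looked at as a check of the labels, had 44.8, 41.8 and 43.3 CPM under overexpression (counts per 1000000 counts, scaled by edgeR's TMM method). It had 21.6, 22.6 and 29.0 CPM in the control and was called higher under overexpression (edgeR adjusted p = 0.00704). The source of this difference was not tested. The tissue was checked by the spermatid gene dj, which was at 1905 to 2352 CPM under overexpression and 2371 to 3228 CPM in the control. A list of 35 genes, here called the accessory gland list after an organ next to the testis, was summed. It also holds genes of the ejaculatory bulb, among them EbpII and EbpIII, so it is not of a single tissue. The sum was 581, 1364 and 11260 CPM under overexpression, against 9625, 376 and 6486 CPM in the control. Libraries within each group therefore differed in this sum by more than the groups did. EbpIII alone had 171 CPM in control replicate 2. In the control EbpII had 0.0549, 2.67 and 0.0584 CPM, an order unlike that of the sum. The labels do not say whether the pools came from separate crosses, so the p-values measure the spread between these pools, which may be technical.

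In the control testes the pathway genes covered a wide range of levels, given here as RPKM (CPM per kilobase of annotated exon). Of the 36 genes, 6 were under 1 RPKM, 23 lay between 1 and 10 RPKM and 7 were at 10 RPKM or more. Their median was 5.10 RPKM under overexpression and 3.90 RPKM in the control, where the median of all genes that passed a filter on low counts was 6.60 RPKM. All 36 passed that filter, edgeR's filterByExpr, together with 12441 genes in all, and the lowest count of a member in any library was 13. The highest level was that of papi, a Tudor protein of the mitochondrial surface, at 65.5 ± 5.85 RPKM under overexpression and 69.2 ± 9.78 RPKM in the control (SD, n = 3 each). Next came Su(var)205, which encodes the heterochromatin protein HP1a, at 65.3 ± 11.5 RPKM under overexpression and 52.7 ± 8.79 RPKM in the control, a level that overlaps that of papi within the spread. The gene squ, which encodes a nuage protein, had 48.6 ± 2.65 RPKM under overexpression and 42.1 ± 2.86 RPKM in the control.

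The lowest control levels were those of BoYb at 0.648 ± 0.179 RPKM, rhi at 0.737 ± 0.184 RPKM and tej at 0.744 ± 0.112 RPKM (SD, n = 3 each), which do not differ beyond their spread. Under overexpression they had 0.935 ± 0.278, 0.639 ± 0.191 and 0.640 ± 0.279 RPKM. Among the PIWI-clade Argonautes the control order was AGO3 at 7.27 ± 1.30 RPKM, aub at 2.25 ± 1.10 RPKM and piwi at 0.881 ± 0.240 RPKM, and the overexpression order was the same, at 8.07 ± 1.03, 4.43 ± 1.11 and 1.51 ± 0.356 RPKM. The level of piwi therefore stood at percentile 13.8 of the genes that passed the filter in the control, and that of AGO3 at percentile 51.8. The plot of levels by role shows low and high genes side by side in the roles other than the Argonautes.

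**Figure D1:**
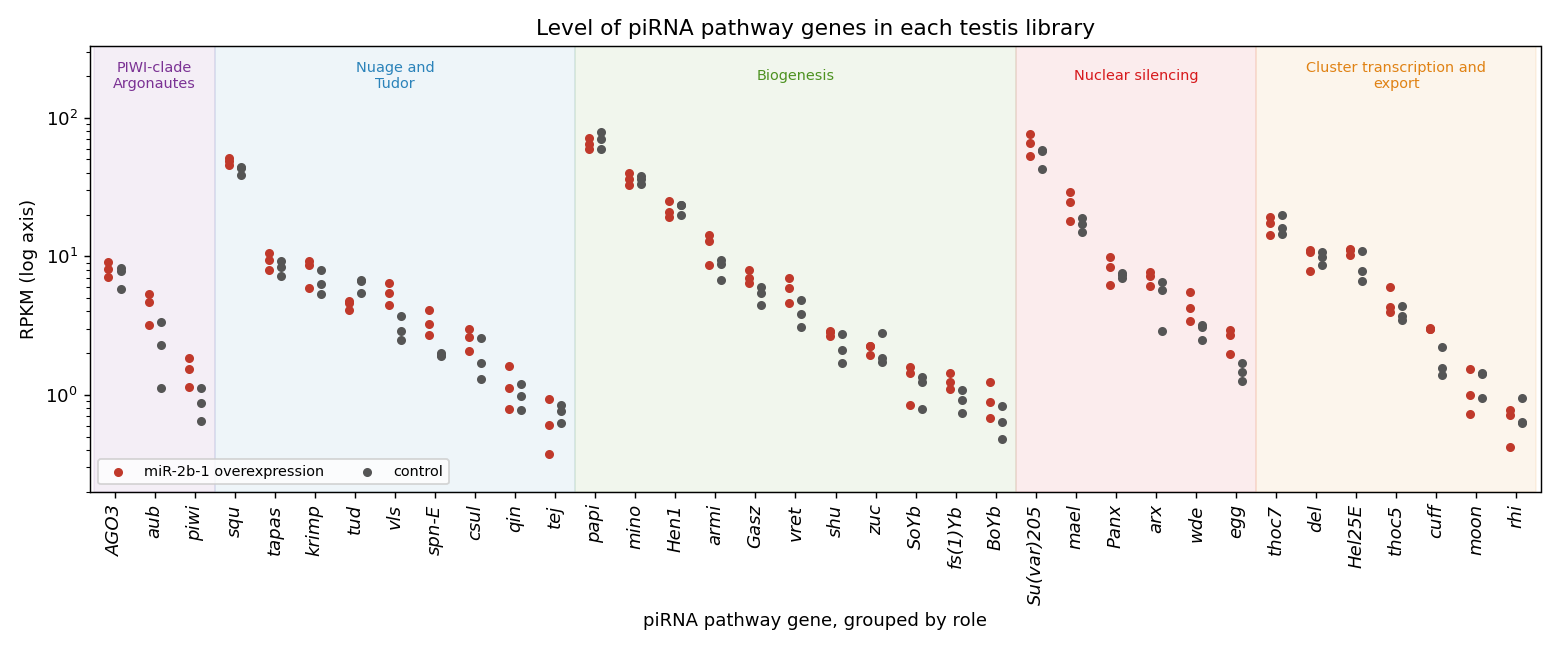
Level of each of the 36 piRNA pathway genes, grouped by role on the horizontal axis, with RPKM on a logarithmic vertical axis and 1 point per library (3 miR-2b-1 overexpression libraries left of 3 control libraries). The highest gene, papi, lies near 69.2 RPKM in the control and the lowest, BoYb, near 0.648 RPKM.

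Between the groups, 1 of the 36 genes was called at an adjusted p under 0.05 (edgeR's quasi-likelihood test, Benjamini-Hochberg adjustment over all 17559 genes). It was spn-E, and it was higher under overexpression. This is 2.78% of the members, against a background of 1.79% called higher among the genes that passed the filter and 1.29% among all genes (2.81% in either direction), so the count is near the background. No member was called lower, against a background of 2.07% among the genes that passed the filter and 1.51% among all genes, and 1 had an unadjusted p under 0.05 in that direction. With DESeq2, 4 members were called, namely spn-E, egg and aub higher (8.33%, background 2.70% of the genes that passed the filter) and tud lower (2.78%, background 3.16%).

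The fitted changes of the members lay mostly on one side. The log2 fold change was positive for 30 of 36 genes, against 51.6% of the genes that passed the filter and 45.7% of all genes, and its median was 0.31, against 0.01 for the genes that passed the filter. The median was 0.17 without overexpression replicate 1 and 0.18 without control replicate 3. At an unadjusted p under 0.05, 10 members were higher (27.8%, background 11.2% after the filter and 8.41% over all genes) and 1 was lower (2.78%, background 8.04% and 6.33%). In 9 members (25%, background 14.3% after the filter and 11.0% over all genes) every overexpression library lay above every control library, and in 1 (background 11.1% and 8.83%) every one lay below. The members share libraries and cells, so these counts describe the list and do not test it. Leaving out 1 library at a time, 24 of the 30 positive genes stayed positive in all 6 fits, and 1 of the 6 negative genes, tud, stayed negative in all 6. With upper-quartile scaling 26 members were positive.

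**Figure D2:**
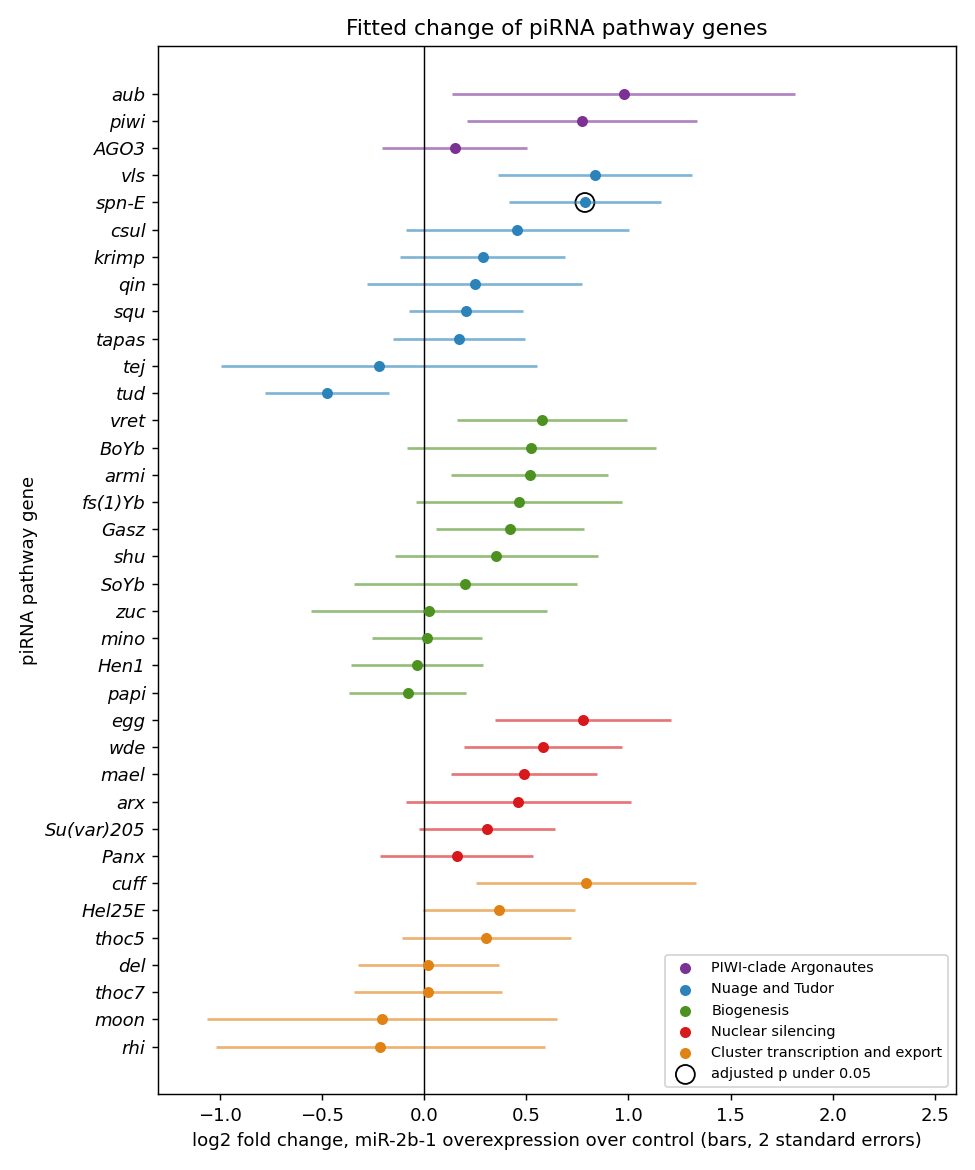
Fitted log2 fold change of each piRNA pathway gene on the horizontal axis, miR-2b-1 overexpression over control, with genes grouped and coloured by role and bars of 2 standard errors. A ring marks spn-E at 0.79, the single gene with an adjusted p under 0.05, and the points run between -0.48 for tud and 0.98 for aub.

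All 3 PIWI-clade Argonautes had positive log2 fold changes (background 51.6% of the genes that passed the filter). With edgeR 0 were called, with 1 higher at an unadjusted p under 0.05 (piwi, background 11.2%). DESeq2 called 1 higher (aub, background 2.70%). The gene piwi, whose protein carries piRNAs into the nucleus (FBgn0004872, chromosome 2L, 10982205 to 10987420 of the BDGP6 assembly), had 5.67, 4.74 and 3.49 CPM under overexpression, against 3.46, 2.67 and 1.99 CPM in the control. The lowest overexpression library lay just above the highest control library. The fitted log2 fold change of piwi, 0.77 with a standard error of 0.281, did not pass (edgeR adjusted p = 0.183). Exons of piwi share 191 bases, 6.22%, with SCAR on the other strand. SCAR had 17.8 to 25.2 CPM under overexpression and 14.0 to 18.2 CPM in the control (log2 fold change 0.41, standard error 0.181).

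The gene aub encodes the Argonaute that binds mostly antisense piRNAs and cuts transposon transcripts (FBgn0000146, chromosome 2L, 10997819 to 11001476). It had 16.2, 14.1 and 9.69 CPM under overexpression, against 10.1, 6.89 and 3.39 CPM in the control. The groups overlapped, since overexpression replicate 3 lay below control replicate 1, and the control libraries differed among themselves about as much as the groups did. The log2 fold change of aub was 0.98, the largest of the members, with a standard error of 0.420 and an edgeR adjusted p of 0.369. It was called with DESeq2 (adjusted p = 0.0490). Exons of aub share 79 bases, 2.62%, with the more abundant gene TTLL4A on the other strand. TTLL4A had 505 to 791 CPM under overexpression and 541 to 641 CPM in the control (log2 fold change 0.14, standard error 0.165). The genes piwi and aub lie on the same strand with 10398 bases between them.

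AGO3, the ping-pong partner of Aub (FBgn0250816, chromosome 3L, 23554593 to 23689640), had 25.7, 29.0 and 22.4 CPM under overexpression, against 26.1, 24.9 and 18.4 CPM in the control. The groups overlapped in part, and the fitted difference of AGO3 was small (log2 fold change 0.15, standard error 0.177, edgeR adjusted p = 0.818).

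Of the 9 nuage and Tudor genes measured, edgeR called spn-E alone (background 1.79% of the genes that passed the filter called higher). The gene spn-E, a DExH-box helicase with a Tudor domain that is needed for ping-pong (FBgn0003483, chromosome 3R, 15837419 to 15844415), had 19.3, 15.2 and 12.7 CPM under overexpression, against 9.01, 9.41 and 8.94 CPM in the control. Every overexpression library lay above the control, whose libraries were nearly equal, while the overexpression libraries differed by more among themselves than the control did. The level of spn-E was 1.72-fold higher (log2 fold change 0.79, standard error 0.186, edgeR adjusted p = 0.0275). The call was lost in 5 of the 6 fits without 1 library, with edgeR adjusted p up to 0.205 without overexpression replicate 1, and was kept without overexpression replicate 3 (edgeR adjusted p = 0.00453). With all libraries it was also lost under edgeR's newer quasi-likelihood method (adjusted p = 0.0547) and under a prior without the robust option (adjusted p = 0.0981). Pbp45, which lies in an intron of spn-E on the other strand and shares no exon base with it, had 0.655 to 0.866 CPM under overexpression and 0.308 to 0.659 CPM in the control.

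The gene vls encodes the partner of the arginine methyltransferase Csul, which methylates PIWI proteins so that Tudor proteins can bind them. It had 8.36, 7.15 and 5.79 CPM under overexpression, against 4.89, 3.24 and 3.80 CPM in the control, without overlap (log2 fold change 0.84, standard error 0.238, edgeR adjusted p = 0.0741). Its exons share 121 bases with lok, which is on the other strand and had a fitted log2 difference of 0.18 (standard error 0.253). The methyltransferase gene csul itself had a fitted log2 difference of 0.46 (standard error 0.273), with overlapping groups.

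The gene tud had the lowest log2 fold change of the members. It encodes the large Tudor-domain scaffold that binds methylated Aub (FBgn0003891, chromosome 2R, 21183322 to 21192913) and had 42.2, 40.8 and 36.0 CPM under overexpression, against 59.4, 47.7 and 58.5 CPM in the control. Every overexpression library lay below every control library, at a fitted log2 fold change of -0.48, with a standard error of 0.152 (edgeR adjusted p = 0.119). It was called with DESeq2 (adjusted p = 0.0410). No other member had its groups apart in this direction.

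Among the rest of the nuage genes, squ had all overexpression libraries, at 62.8 to 70.0 CPM, above the control at 53.3 to 60.8 CPM, with a small log2 fold change of 0.21 (standard error 0.139). Its exons share 223 bases, 16.3%, with grp on the same strand, which had a fitted log2 difference of 0.19 (standard error 0.162). The groups overlapped for krimp, which brings AGO3 together with Aub, for qin, which keeps ping-pong between unlike partners, and for the Tudor-domain genes tapas and tej, with log2 fold changes between -0.22 for tej and 0.29 for krimp.

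Of the 11 genes of piRNA biogenesis and loading, 0 were called with edgeR or with DESeq2. At an unadjusted edgeR p under 0.05, 3 were higher (armi, vret and Gasz, background 11.2% of the genes that passed the filter). The 11 include the mitochondrial endonuclease zuc, the helicase armi, the Yb-type Tudor helicases, and Hen1, which methylates the ends of piRNAs. The gene armi, whose protein feeds precursors to Zuc, had 58.9, 53.6 and 36.3 CPM under overexpression, against 36.4, 39.4 and 28.1 CPM in the control (log2 fold change 0.52, standard error 0.192, edgeR adjusted p = 0.200). The groups overlapped through overexpression replicate 3, and without that library the edgeR adjusted p was 0.0128. Nearly all of the exon bases of armi, 99.6%, are shared with CG46463 in the current annotation, a gene with no row in these files.

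The gene vret, a Tudor protein of the same step, had 16.3, 13.9 and 10.8 CPM under overexpression, against 11.3, 8.99 and 7.19 CPM in the control, again with overlap through overexpression replicate 3 (log2 fold change 0.58, standard error 0.208, edgeR adjusted p = 0.180). Gasz, a scaffold of the mitochondrial surface, had 12.3 to 15.1 CPM under overexpression and 8.53 to 11.4 CPM in the control, without overlap (log2 fold change 0.42, standard error 0.181, edgeR adjusted p = 0.281). The somatic Yb gene fs(1)Yb had 3.87 to 5.05 CPM under overexpression and 2.57 to 3.79 CPM in the control, also without overlap (log2 fold change 0.46, standard error 0.253).

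Its relatives BoYb and SoYb had log2 fold changes of 0.52 and 0.20 with overlapping groups. For the more abundant mitochondrial genes the groups lay close together. The log2 fold change was -0.08 (standard error 0.143) for papi and 0.02 (standard error 0.134) for mino, an acyltransferase-like gene needed for piRNA biogenesis. It was -0.03 (standard error 0.161) for Hen1, 0.03 (standard error 0.289) for zuc, a gene at about 2.5 CPM in both groups, and 0.35 (standard error 0.248) for shu, a co-chaperone for loading of PIWI proteins.

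The 6 genes of nuclear silencing had positive log2 fold changes (background 51.6% of the genes that passed the filter). With edgeR 0 were called, with 3 higher at an unadjusted p under 0.05 (egg, wde and mael, background 11.2%). DESeq2 called 1 higher (egg, background 2.70%). The roles hold few genes each, and differences between roles were not tested. The gene egg encodes the histone methyltransferase that deposits the silencing mark (FBgn0086908, chromosome 2R, 24775534 to 24779901). It had 11.5, 10.7 and 7.78 CPM under overexpression, against 6.70, 4.99 and 5.79 CPM in the control, without overlap (log2 fold change 0.78, standard error 0.214, edgeR adjusted p = 0.0645). It was called with DESeq2 (adjusted p = 0.0445). Its cofactor wde had 26.8, 20.7 and 16.5 CPM under overexpression, against 15.1, 12.1 and 15.6 CPM in the control, also without overlap (log2 fold change 0.58, standard error 0.194, edgeR adjusted p = 0.139).

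The gene mael, which acts downstream of Piwi, had 62.7, 52.9 and 38.6 CPM under overexpression, against 40.5, 37.0 and 32.3 CPM in the control (log2 fold change 0.49, standard error 0.178, edgeR adjusted p = 0.183). Its groups overlapped at overexpression replicate 3 and control replicate 1. Exons of mael share 246 bases with CG14451 on the other strand, which had a fitted log2 difference of 0.13 (standard error 0.240). The log2 fold changes were 0.46 for arx, 0.31 for Su(var)205 and 0.16 for Panx, which links Piwi to the silencing machinery, with overlapping groups in each.

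The 7 genes of cluster transcription and export had a median log2 fold change of 0.02, the lowest of the 5 roles. With edgeR or DESeq2 0 were called, with 1 higher at an unadjusted edgeR p under 0.05 (cuff, background 11.2% of the genes that passed the filter). The gene cuff, which protects cluster transcripts from early termination, had 3.93, 3.87 and 3.87 CPM under overexpression, against 2.03, 2.88 and 1.81 CPM in the control. The groups did not overlap (log2 fold change 0.79, standard error 0.269, edgeR adjusted p = 0.148). Exons of cuff share 36 bases with the abundant gene ERp60, which had 402 to 444 CPM under overexpression and 400 to 557 CPM in the control (log2 fold change -0.14, standard error 0.148).

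The partners of cuff had fitted changes near 0 or below it. The log2 fold change was -0.21 (standard error 0.403) for rhi, whose protein marks cluster chromatin, 0.02 (standard error 0.172) for del, its adaptor, and -0.21 (standard error 0.427) for moon, which starts transcription there. The rhi and moon libraries held between 0.592 and 1.49 CPM. For the export genes the log2 fold change was 0.37 (standard error 0.186) for Hel25E, 0.31 (standard error 0.207) for thoc5 and 0.02 (standard error 0.181) for thoc7, each with overlapping groups.

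**Figure D3:**
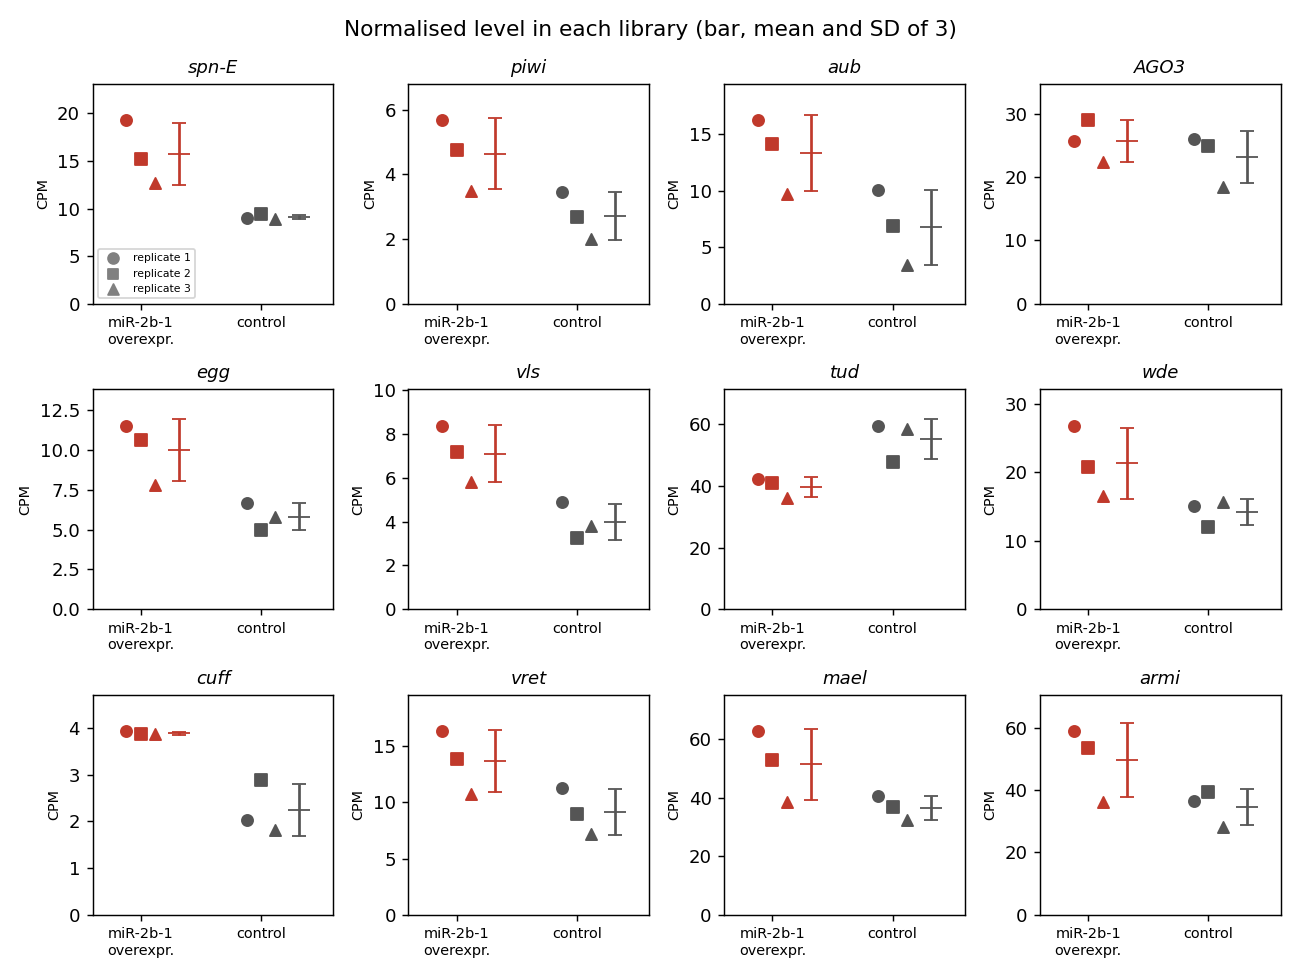
CPM of 12 piRNA pathway genes in each library, on vertical axes that start at 0, with miR-2b-1 overexpression left of the control, 1 symbol per replicate number, and a bar with the mean and SD of 3 libraries. Overexpression replicate 3 is the lowest of its group in all 12 panels, narrowly in cuff, and for tud all overexpression libraries lie below the control.

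The members also varied together among the libraries of one group. Overexpression replicate 3 had the lowest overexpression value in 30 of 36 members, against 36.5% of the genes that passed the filter, and overexpression replicate 1 had the highest in 27, against 34.9%. In the control, replicate 3 had the lowest value in 22 members, against 40.8%. Relative to the control mean on the log2(CPM + 1) scale, the median of the members was 0.48, 0.33 and 0.10 in overexpression replicates 1, 2 and 3, against 0.15, 0.02 and -0.16 in control replicates 1, 2 and 3, so overexpression replicate 3 lay below control replicate 1. Without overexpression replicate 3, 7 members were called higher (armi, egg, mael, spn-E, vls, vret and wde), which is 19.4% of the members, against 3.87% of the genes that passed the filter. Without any one of the other 5 libraries, 0 members were called with edgeR, against 0.61% to 1.52% of the genes that passed the filter called higher. In these 5 fits, 5 to 14 members were higher at an unadjusted p under 0.05. The share of all genes at that p was not worked out for these fits, so the 5 to 14 have no background. Overexpression replicate 3 had the highest sum of the accessory gland list. In the control, replicate 1 had the highest sum, 9625 CPM, and also the highest median of the members, 0.15. Control replicate 2 had the lowest sum, 376 CPM, and a median of 0.02. The part of the tissues of this list in the members' values was not tested. With the mean log2 CPM of the accessory gland list as a covariate, 4 members were called, all higher (armi, egg, spn-E and vls). This is 11.1% of the members, against 3.04% of the genes that passed the filter. The median log2 fold change of the members was 0.33 with the covariate and 0.31 without it.

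Of 26 other genes of the pathway, 25 were in the files. With edgeR 0 were called, and 24 had a log2 fold change above 0 (median 0.33, background 51.6% above 0). At an unadjusted p under 0.05, 11 were higher (44%, background 11.2%). DESeq2 called 1 of them higher, tho2 (background 2.70%). This list too was chosen with earlier results of these data known, and its genes share libraries and cells. Its counts therefore describe the list, do not test it and are no independent support for the members. The lowest p was that of tho2, a subunit of the THO export complex with thoc5 and thoc7. It had 43.2, 34.7 and 32.7 CPM under overexpression, against 24.7, 24.8 and 24.3 CPM in the control, without overlap (log2 fold change 0.58, standard error 0.161, edgeR adjusted p = 0.0633). The export receptor gene emb (log2 fold change 0.57, standard error 0.192, edgeR adjusted p = 0.147) had overlapping groups. In the nuclear pore gene Nup358 the groups did not overlap (log2 fold change 0.46, standard error 0.155, edgeR adjusted p = 0.148).

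Transposons, the main targets of piRNAs, were not analysed here. The listed loci, namely lncRNA:flam, tj and the Stellate and Suppressor of Stellate copies, were hardly detected. Low counts do not show that such a locus is silent, since the handling of reads with several alignments was not given. The transcript lncRNA:flam, the main piRNA cluster of somatic gonad cells, had 0 counts in the 3 overexpression libraries and at most 1 count in each control library, too few to compare. The gene tj encodes a factor of cyst cells and is itself a source of piRNAs. The gene tj had 1.27, 1.05 and 0.976 CPM under overexpression, against 0.659, 0.514 and 0.117 CPM in the control, without overlap (log2 fold change 1.33, standard error 0.524, edgeR adjusted p = 0.227). Over the 14 Stellate copies, the summed level was 0.771, 0.456 and 3.91 CPM under overexpression, against 2.09, 0.514 and 1.17 CPM in the control. Over 34 Suppressor of Stellate copies it was 2.24, 1.37 and 2.16 CPM under overexpression, against 1.26, 1.49 and 0.994 CPM in the control. Both sums overlapped between the groups, and the highest Stellate sum was that of overexpression replicate 3. Of the 14 Stellate copies, 10 had 0 counts in all libraries, so the sum is not a value of the whole family. The copy Ste:CG33236 alone had 1, 3 and 72 counts under overexpression, against 27, 0 and 17 in the control. In overexpression replicate 3 the 14 copies together had 112 counts. Of the 34 Suppressor of Stellate copies, 19 had 0 counts in all libraries. These copies are nearly identical, so their counts depend on how reads that map to several places were treated, and Ste12DOR, the listed Stellate gene with the lowest p, had a fitted log2 difference of 0.87 (standard error 0.604).

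Markers of the cells that could carry these transcripts were set beside the members. In bulk testes, fewer cells of a type and less RNA per cell cannot be told apart. Among the genes that passed the filter, the background for these lists, 51.6% were above 0 in log2 fold change, with a median of 0.01. Of 10 markers of mitotic germ cells, 9 were above 0 (median 0.27). With edgeR 0 were called, and 3 were higher at an unadjusted p under 0.05 (background 11.2% of the genes that passed the filter). The germ cell genes ovo, zpg and nos were the 3 with the lowest p, at 1.86, 0.96 and 0.89 on the log2 scale, each with its standard error (0.661, 0.365 and 0.340). Their counts were low, at 1 to 24 per library for ovo, 12 to 91 for zpg and 19 to 81 for nos. The other markers of this list lay between -0.09 for mei-P26 and 0.46 for otu, with 0.01 for bgcn, 0.12 for Rbp9 and 0.14 for bru1. The sum of the 10 was 1286 to 1882 CPM under overexpression and 1236 to 1783 CPM in the control, and most of it was bru1, at 1017 to 1620 CPM under overexpression and 1023 to 1509 CPM in the control, so this sum says little about ovo, zpg and nos. Of 13 spermatocyte markers, 10 were positive, with a median of 0.26, and of 11 spermatid markers 10 were negative, with a median of -0.21. With edgeR 0 were called in either list. At an unadjusted p under 0.05, 5 spermatocyte markers were higher and 1 lower, and 3 spermatid markers were lower (background 11.2% higher and 8.04% lower). DESeq2 called 3 spermatocyte markers (topi and achi higher, mia lower) and 0 mitotic germline or spermatid markers. The DESeq2 background was 2.70% higher and 3.16% lower. The spermatocyte markers summed to 1677 to 2037 CPM under overexpression and 1734 to 2007 CPM in the control, and the spermatid markers to 17010 to 20670 CPM under overexpression and 20110 to 22840 CPM in the control.

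The 9 hub and cyst cell markers had a median of 0.03, with 0 called with edgeR or DESeq2 and tj at an unadjusted p under 0.05, and their sum was 152 to 173 CPM under overexpression and 152 to 172 CPM in the control. Of 9 muscle sheath markers 8 were negative (background 51.6% of the genes that passed the filter above 0). With edgeR 3 were called lower (Mhc, Mlc1 and Mlc2, background 2.07%), and with DESeq2 7 were called lower (background 3.16%). The muscle sheath markers had a sum of 284 to 303 CPM under overexpression and 376 to 590 CPM in the control. Of the 8 fat body markers 7 were negative, with a median of -0.76. They had 0 calls with edgeR, also at an unadjusted p under 0.05. Their sums were 77.1 to 104 CPM under overexpression and 76.9 to 168 CPM in the control, and the yolk protein gene Yp1 had between 0 and 0.140 CPM. No listed marker of germ cells, hub and cyst cells or muscle was at 0 in all libraries. The part of these cell types in the values of the pathway genes was not tested.

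**Figure D4:**
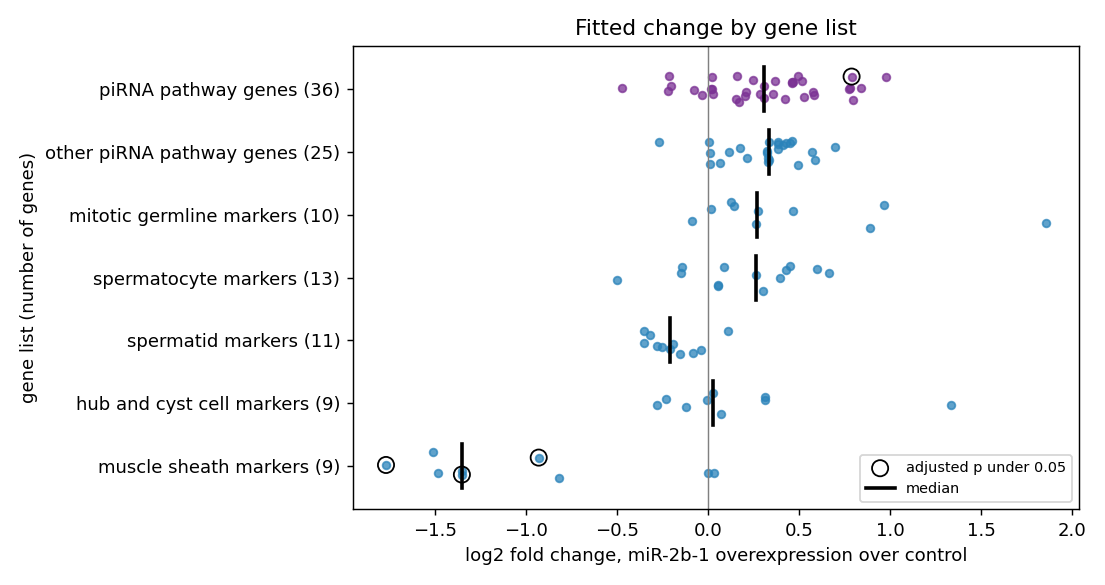
Fitted log2 fold change, miR-2b-1 overexpression over control, on the horizontal axis, for the piRNA pathway genes, other genes of the pathway and 5 lists of cell type markers, with 1 point per gene that passed the filter, a black line at the median and a ring around genes with an adjusted p under 0.05. The medians are 0.31 for the piRNA pathway genes, 0.27 for mitotic germline markers and -0.21 for spermatid markers.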

How the data were processed

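RNA of testes was sequenced in 3 miR-2b-1 overexpression and 3 control samples. Per the methods and the submitters' processing notes, the authors trimmed the reads (cutadapt), aligned them with STAR and deposited raw counts per gene from featureCounts, on an Ensembl annotation of the dm6 (BDGP6) assembly. Whether counting used strand, and how reads with several alignments were handled, was not given in the sources used here, so counts of overlapping or near-identical genes are uncertain. In a table of the whole series, 6 columns of sample values and the authors' table of fold changes and p-values were not used. Rows that name no gene numbered 0.

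All 17559 genes were fitted with edgeR 4.0.16 in R 4.3.3 (TMM, quasi-likelihood test with the older method and a robust prior, condition as the single term, no filter on low counts) and p-values were adjusted by Benjamini-Hochberg over all genes, with a threshold of 0.05. The standard error is the log2 fold change divided by the square root of F. The script was tested on simulated data. Symbols, coordinates and exon lengths came from Ensembl release 115, a later annotation than that of the authors, which named 17253 genes, and no identifier was assigned by guess. RPKM divides CPM by the union of annotated exons. The members and lists were chosen with earlier results of these data known. Every member is named, with values per library for called members, the 3 Argonautes and up to 8 others of lowest p, and from other lists the genes called or among the 3 of lowest p. The sums over all Stellate and Suppressor of Stellate copies were added after the data were seen.

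The alternatives were RLE and upper-quartile scaling, DESeq2 1.42.0, filterByExpr, a prior without the robust option, the newer quasi-likelihood method, a block for replicate number, an accessory gland covariate and each library left out in turn. No sequence was used here.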

Additional observations from a re-analysis of the deposited data

How the results depend on the processing

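All values below are counts of calls at an adjusted p under 0.05, with 493 of all genes, 1 member (spn-E) and 0 other pathway genes called in the reported fit. DESeq2 called 742 genes, 4 members and 1 other pathway gene. The newer quasi-likelihood method called 0 members (spn-E adjusted p = 0.0547), and a prior that is not robust 236 genes and 0 members (spn-E adjusted p = 0.0981). The accessory gland covariate gave 861 genes, 4 members and 1 other pathway gene. Across the fits without one library the counts ranged from 205 to 923 genes, from 0 to 7 members and from 0 to 2 other pathway genes, with 923, 7 and 2 without overexpression replicate 3. The counts of genes were 205 and 240 without overexpression replicates 2 and 1 and 242 without control replicate 2. Upper-quartile scaling called 223 genes higher and 414 lower, against 227 and 266 in the reported fit, and shifted the median of the genes that passed the filter to -0.06. The cause was not tested.

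With the replicate block, 349 genes and 1 member, aub (adjusted p = 0.0370), were called, and spn-E was not (adjusted p = 0.0635). Across genes, the deviations from the group means of each same-numbered pair had correlations of -0.58, 0.30 and 0.54, so the numbers were not taken to pair the samples. The median log2 fold change of the members, 0.31 in the reported fit, was lowest without overexpression replicate 1, at 0.17, and highest without replicate 3 of that group, at 0.43. Among 168 values of the 12 members given by library, which were chosen as called, Argonaute or of lowest p, 8 lost and 13 gained the threshold. All 8 losses were of spn-E, the single member called in the reported fit, so no other member could lose it. Over all members, 24 of 30 positive and 1 of 6 negative genes kept their direction in every fit without one library. The lowest library counts were those of moon, at 13 to 36, and the standard errors of rhi, moon and tej were 0.403, 0.427 and 0.387, close to the 0.420 of aub, which had 58 to 421 counts. The part of depth in these errors was not tested.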
